A study of Mus musculus with 7 samples.

Results

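The miRNAs described here are those processed from the paralogous miR-232724 clusters of the mouse. They were chosen by their hairpins, and every entry from mir-23a, mir-23b, mir-24-1, mir-24-2, mir-27a and mir-27b was taken, whatever its arm and whatever its level. The array carried 9 such entries. Of these, 7 are among the 252 mouse miRNAs of the deposited table, which were detected on all arrays: mmu-miR-23a, miR-27a and miR-24-2* from chromosome 8, mmu-miR-23b, miR-27b and miR-24-1* from chromosome 13, and mmu-miR-24, which both clusters make. The remaining 2 entries, miR-27a-5p and miR-27b-5p, were detected on 0 of 7 arrays and are absent from the table. The star marks the 5′ arm of the miR-24 hairpins.

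The study asked which miRNAs follow Rb depletion and sphere formation in sarcoma cells that lack p53. All arrays were made from soft tissue sarcoma cells of p53 knockout mice, transduced with an shRNA vector and selected with puromycin. Control primary cells (2 arrays) carried a non-target shRNA and Rb-depleted primary cells (2 arrays) an shRNA against Rb, and both were grown as monolayers. Rb-depleted secondary cells (3 arrays) were recovered from spheres that Rb-depleted cells had formed in serum-free methylcellulose with EGF and bFGF, and were then passaged a single time as a monolayer. No secondary cells with the control shRNA are among the samples, so Rb depletion and passage through spheres cannot be told apart when secondary cells are set against control primary cells. Rb depletion rested on 1 shRNA sequence per the labels, and Rb mRNA is not measured by a miRNA array.

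The miR-232724 clusters are a pair of transcription units that arose by duplication, and each yields a miR-23, a miR-27 and a miR-24 from 1 primary transcript. A mature miRNA guides Argonaute to mRNAs mainly through its seed, which here means bases 2 to 8 from the 5′ end, so paralogues with the same seed share most predicted targets. The clusters are broadly expressed in mesenchymal and endothelial cells. MiR-27 is known for restraining adipogenic differentiation, miR-23 for targeting glutaminase mRNA downstream of Myc, which represses these clusters, and miR-24 for restraining cell cycle genes. The 5′ arms of the miR-24 hairpins are usually the minor product.

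The mature sequences are shown because they set which members the array could tell apart and which share a seed. They are given 5′ to 3′ from RefSeq (table of assembly GRCm38.p6), with the seed in capitals. MiR-23b had no mature entry of its own there, so its sequence is not shown and was not compared with that of miR-23a.
mmu-miR-23a-3p: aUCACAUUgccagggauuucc
mmu-miR-27a-3p: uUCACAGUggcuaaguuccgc
mmu-miR-27b-3p: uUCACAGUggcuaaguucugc
mmu-miR-24-3p: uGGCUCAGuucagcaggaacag
mmu-miR-24-2-5p: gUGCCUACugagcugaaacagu
mmu-miR-24-1-5p: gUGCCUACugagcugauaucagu
mmu-miR-128-3p: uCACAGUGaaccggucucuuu
The 3p forms carry the array names miR-23a, miR-27a, miR-27b and miR-24, and the 5p forms the names miR-24-2* and miR-24-1*. MiR-27a and miR-27b share their first 18 bases and differ at 1 position, C19U, counted from the 5′ end with the base of miR-27a first. The miR-24 5′ arms share their first 16 bases and their seed, and differ at the 3′ end. MiR-24 itself has 1 mature sequence for both hairpins, so its value is the sum of what the 2 clusters make. MiR-128 is no member of the clusters, and is shown because the run ucacagug stands in both miR-27a, from base 2, and miR-128, from base 1.

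In the NCBIM37 genome, the build of the array's probe annotation, the hairpins lie on the plus strand of both chromosomes. On chromosome 8, Mir23a (86732417 to 86732491), Mir27a (86732571 to 86732657) and Mir24-2 (86732714 to 86732820) span 404 bases, overlap no coding gene and have Zswim4 as their nearest coding gene, 1757 bases from Mir24-2. On chromosome 13, Mir23b (63401792 to 63401865), Mir27b (63402020 to 63402092) and Mir24-1 (63402516 to 63402583) span 792 bases within introns of 2010111I01Rik, which is transcribed on the same strand and of which 0 exons overlap a hairpin. The gap between the miR-27 and miR-24 hairpins is 56 bases on chromosome 8 and 423 bases on chromosome 13.

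**Figure D1:**
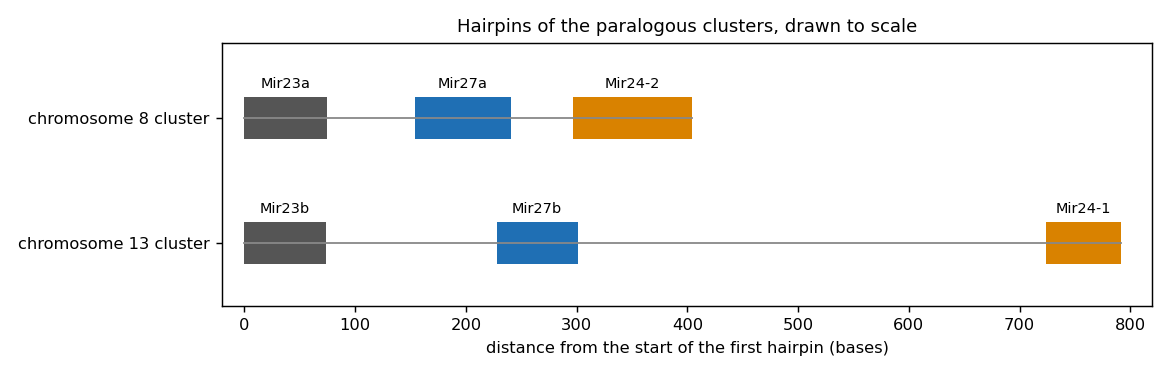
Map of the hairpins on chromosome 8 (upper line) and chromosome 13 (lower line), with the distance in bases from the first base of the first hairpin on the horizontal axis and each box drawn to the length of the hairpin. The order miR-23, miR-27, miR-24 is the same in both clusters, which span 404 and 792 bases.

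A one-colour array reports for each miRNA the total gene signal, the summed brightness of its spots in intensity units, and the deposited values are its log2 after quantile normalization over the arrays. Between 258 and 287 mouse miRNAs were detected per array. Rb-depleted secondary replicate 1 was hybridized on the slide of the 4 primary samples, and replicates 2 and 3 on a second slide. The 4 mesenchymal marker miRNAs (miR-199a-3p, miR-214, miR-143 and miR-145) were detected on all arrays, with a summed signal of 7957 to 8679 in control primary, 6087 to 7125 in Rb-depleted primary and 7696 to 8678 in Rb-depleted secondary cells. None of the 4 haematopoietic, 6 epithelial and 1 hepatic markers was detected on any array. Of the 2 endothelial markers, miR-126-5p was detected on no array and miR-126-3p on primary arrays only, at 9.84 to 10.7 in control and 7.02 to 9.10 in Rb-depleted primary cells. Of the 6 muscle markers miR-206 alone was detected (12.9 to 47.0 over all arrays), and of the 2 neuronal markers miR-9 alone (49.3 to 124.5). The part of these marker levels in the results below was not tested.

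The chromosome 8 members gave far more signal than their chromosome 13 partners in every array. MiR-23a was the brightest member, with a total gene signal of 4664 to 7896 and a rank of 11 to 15 among the 252 miRNAs. It was followed by miR-24 (2977 to 5043, rank 19 to 21) and miR-27a (3662 to 5024, rank 16 to 22), which do not differ beyond their spread over arrays. MiR-23b (694 to 1228, rank 41 to 64) and miR-27b (491 to 827, rank 53 to 77) came next with ranges that overlap, although miR-23b was above miR-27b within every array. The 5′ arms were lowest. MiR-24-2* had a signal of 77.8 to 161, and miR-24-1* one of 8.09 to 17.6, which is 2.40 to 5.08 times the lowest signal called detected on the same array. The scanner software gave miR-24-1* an error of 15.9% to 27.6% of its signal. Brightness depends on the probe as well as on the amount of RNA, so this is an order of signals and not of molecules.

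The order within an array was alike on all arrays for most neighbours, and differed between groups for 1 pair. MiR-24 was above miR-27a on 4 of 4 arrays of primary cells, by 0.06 to 0.28 in control and 0.06 to 0.11 in Rb-depleted primary cells on the log2 scale. It was below miR-27a on 3 of 3 arrays of Rb-depleted secondary cells, where miR-24 minus miR-27a was -0.28 to -0.11. The signals before normalization had the same order on every array. This pair was picked after its values were seen and was not tested.

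**Figure D2:**
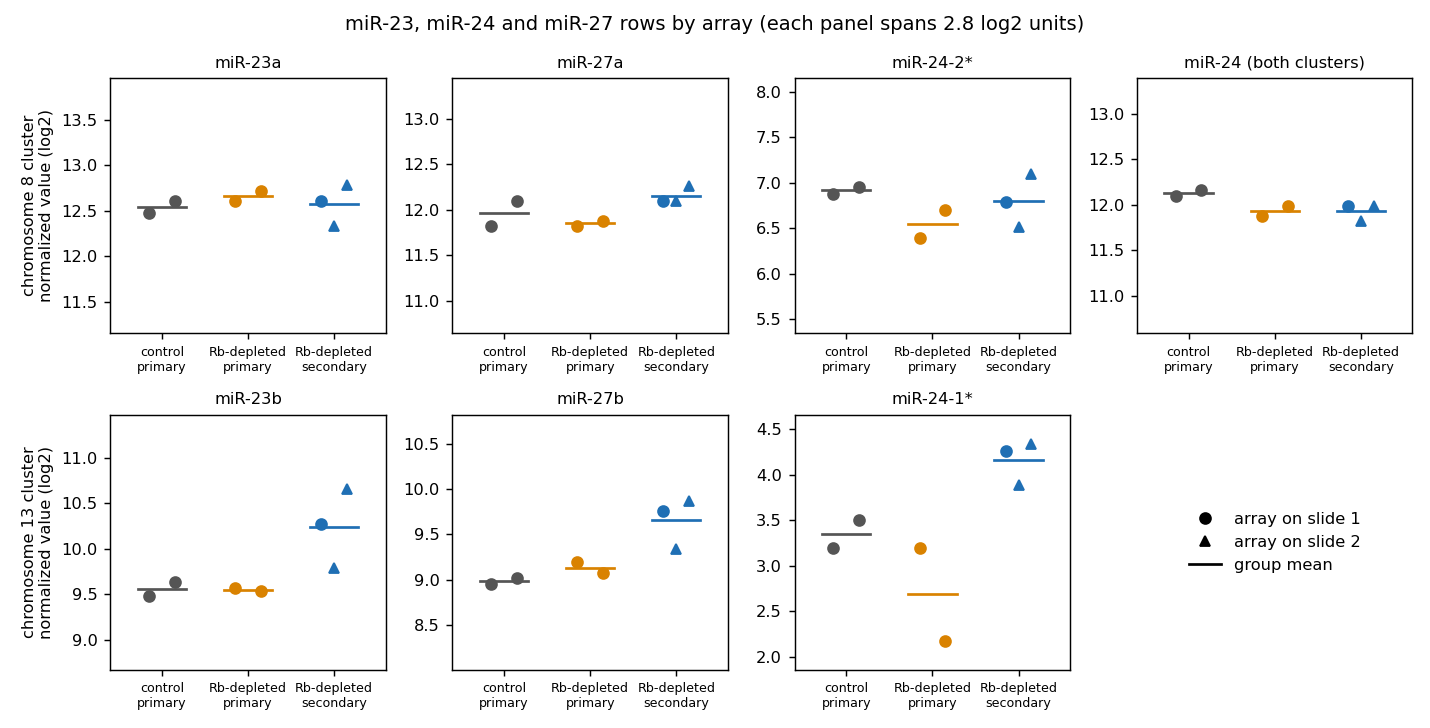
Normalized log2 value (vertical axis) of the 7 members on each of the 7 arrays, grouped by cells on the horizontal axis, with circles for slide 1, triangles for slide 2, lines for group means and panels of equal height in log2 units. MiR-23b, miR-27b and miR-24-1* are higher on all 3 arrays of Rb-depleted secondary cells than on any array of primary cells, while miR-23a overlaps in all 3 groups.

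Rb depletion in primary cells was set against the control shRNA to ask what loss of Rb alone did to the clusters. No member passed the test at an adjusted p under 0.05 (limma, Benjamini-Hochberg over 252 miRNAs), where 1.59% of all miRNAs did. The differences of the abundant guide strands were small. MiR-23a differed by 0.12 on the log2 scale (95% interval -0.28 to 0.52), miR-27a by -0.11, miR-23b by -0.01 and miR-27b by 0.14. The largest differences were in the 5′ arms, miR-24-1* with -0.67 (SE 0.36, adjusted p = 0.297) and miR-24-2* with -0.37 (SE 0.21, adjusted p = 0.321). The value of miR-24-1* rested on Rb-depleted primary replicate 2, without which it was -0.15. MiR-24-2* read 6.88 and 6.96 in control and 6.40 and 6.70 in Rb-depleted primary cells. Both Rb-depleted arrays were lower than both controls, as they were for miR-24, while miR-27b was higher on both. Arrays did not overlap for 57.5% of all 252 miRNAs, with 31.0% higher and 26.6% lower with Rb depletion. The median over the 7 members was -0.11, against 0.01 over all 252 miRNAs. Because the RNA came from whole cultures, a lower level in fewer cells and less RNA per cell cannot be told apart, here or below.

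The normalized value of miR-27b was higher in Rb-depleted secondary than in control primary cells. MiR-27b, the restrainer of adipogenesis made from chromosome 13, read 8.96 and 9.02 in control primary, 9.19 and 9.08 in Rb-depleted primary, and 9.76, 9.34 and 9.87 in Rb-depleted secondary cells. All secondary arrays were above all primary arrays, and replicate 2 was the lowest of them. The difference from control was 0.66 (SE 0.17, 95% interval 0.24 to 1.09), a fold of 1.58, with an adjusted p of 0.0419 (limma). It was the only one of 7 members called, where 22.6% of all miRNAs were called and 13.1% were called higher. With 7 members, 1 call is near these shares. Under other settings the call was not stable: it held in 3 of 10 alternatives and in 1 of the 7 fits that left out an array, and without normalization between arrays the difference was 0.15 (adjusted p = 0.538), where the median of all 252 miRNAs was shifted by -0.46 and miR-27b lay 0.61 above that median.

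The other chromosome 13 members differed from control by as much or more and did not pass. MiR-23b read 9.48 and 9.63 in control primary, 9.57 and 9.53 in Rb-depleted primary, and 10.27, 9.79 and 10.66 in Rb-depleted secondary cells. Again each secondary array was above each primary array, with replicate 2 the lowest. The difference from control was 0.68 (SE 0.25, 95% interval 0.05 to 1.31, adjusted p = 0.117). With 1 array left out it ranged from 0.47 to 0.91, and it passed (adjusted p = 0.0201, limma) only without secondary replicate 2. Without normalization it was 0.23 (adjusted p = 0.419), or 0.69 above the median shift. MiR-24-1* differed from control by 0.81 (SE 0.33, adjusted p = 0.139), and by 0.12 without normalization, or 0.58 above the median shift. It passed (adjusted p = 0.0492, limma) in a fit of only the 2 groups compared, where miR-27b did not.

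None of the chromosome 8 members passed in secondary against control cells. MiR-23a, the regulator of glutaminase, read 12.48 and 12.60 in control primary, 12.60 and 12.72 in Rb-depleted primary, and 12.60, 12.33 and 12.78 in Rb-depleted secondary cells. No group stood apart, and the difference of 0.03 has a 95% interval of -0.34 to 0.40. Equal values on different arrays arise because quantile normalization gives the same rank the same number. MiR-27a differed by 0.19 (adjusted p = 0.262), and by 0.32 (adjusted p = 0.0498) with quantile normalization of the table's miRNAs alone. MiR-24-2* differed by -0.12 (adjusted p = 0.703), and by -0.61 (adjusted p = 0.0353) without normalization, where its value relative to the median shift was -0.15. MiR-24, the product of both clusters, read 12.10 and 12.16 in control primary, 11.88 and 11.99 in Rb-depleted primary, and 11.99, 11.82 and 11.99 in Rb-depleted secondary cells. Every Rb-depleted array was below every control array, and both Rb-depleted groups differed from control by -0.20 (adjusted p = 0.274 for primary and 0.172 for secondary cells). In secondary against control cells, arrays did not overlap for 4 of 7 members (miR-23b, miR-27b, miR-24-1* and miR-24) and for 52.0% of all miRNAs, with 29.8% higher and 22.2% lower.

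The comparison of Rb-depleted secondary with Rb-depleted primary cells holds the shRNA constant. The study picked the spheres by hand, so passage through spheres and the choice of cells cannot be told apart in it. Secondary replicates 2 and 3 were also on a slide without primary arrays. With slide as a term the difference rests on secondary replicate 1 as the only secondary array, and 0 of 252 miRNAs were called. That 0 cannot tell an effect of the slide from lower precision. Without that term the comparison called 1 of 7 members, miR-24-1*, the 5′ arm from chromosome 13, as higher. MiR-24-1* read 3.20 and 3.51 in control primary, 3.20 and 2.17 in Rb-depleted primary, and 4.26, 3.89 and 4.34 in Rb-depleted secondary cells. All secondary arrays were above all primary arrays, and Rb-depleted primary replicate 2 stood well below the rest. The difference was 1.48 (SE 0.33, 95% interval 0.66 to 2.30) with an adjusted p of 0.0357 (limma), beside 20.2% of all miRNAs called and 12.7% called higher. The size rested in part on that single array and on the normalization. The call held in 3 of 10 alternatives and in 2 of the 7 fits that left out an array. Without Rb-depleted primary replicate 2 it was 0.97 (adjusted p = 0.0911), and without normalization between arrays it was 0.67 (adjusted p = 0.0677), or 0.85 above the median shift of -0.18.

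The remaining chromosome 13 guide strands differed from Rb-depleted primary cells by 0.69 for miR-23b (adjusted p = 0.0994) and by 0.52 for miR-27b (adjusted p = 0.0787), with all secondary arrays above, and passed only at an adjusted p under 0.1. MiR-27a differed by 0.31 (adjusted p = 0.101), miR-24-2* by 0.25, miR-23a by -0.09 and miR-24 by less than 0.01. With the only secondary array of the first slide the differences were 0.72 and 0.62. With 1 array left out, both passed without secondary replicate 2, at 0.91 (adjusted p = 0.0232) and 0.68 (adjusted p = 0.0144), and miR-23b fell to 0.48 without secondary replicate 3. Arrays did not overlap for 4 of 7 members (miR-23b, miR-27b, miR-24-1* and, from chromosome 8, miR-27a), all higher in secondary cells, against 51.2% of all miRNAs, with 27.0% higher and 24.2% lower. The median difference was 0.69 over the 3 chromosome 13 members and 0.25 over the 3 of chromosome 8, against 0.02 over all 252 miRNAs. Set against control, the same medians were 0.68, 0.03 and 0.03. These comparisons share the secondary arrays, and those with control share the control arrays.

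Over the 3 groups together, the moderated F-test called 2 of 7 members at an adjusted p under 0.1, miR-24-1* (0.0565) and miR-27b (0.0611), where 43.3% of all miRNAs were called. MiR-23b followed at 0.113, miR-27a at 0.159, miR-24 at 0.226, miR-24-2* at 0.375 and miR-23a at 0.777. The share of members called was below that of all miRNAs.

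**Figure D3:**
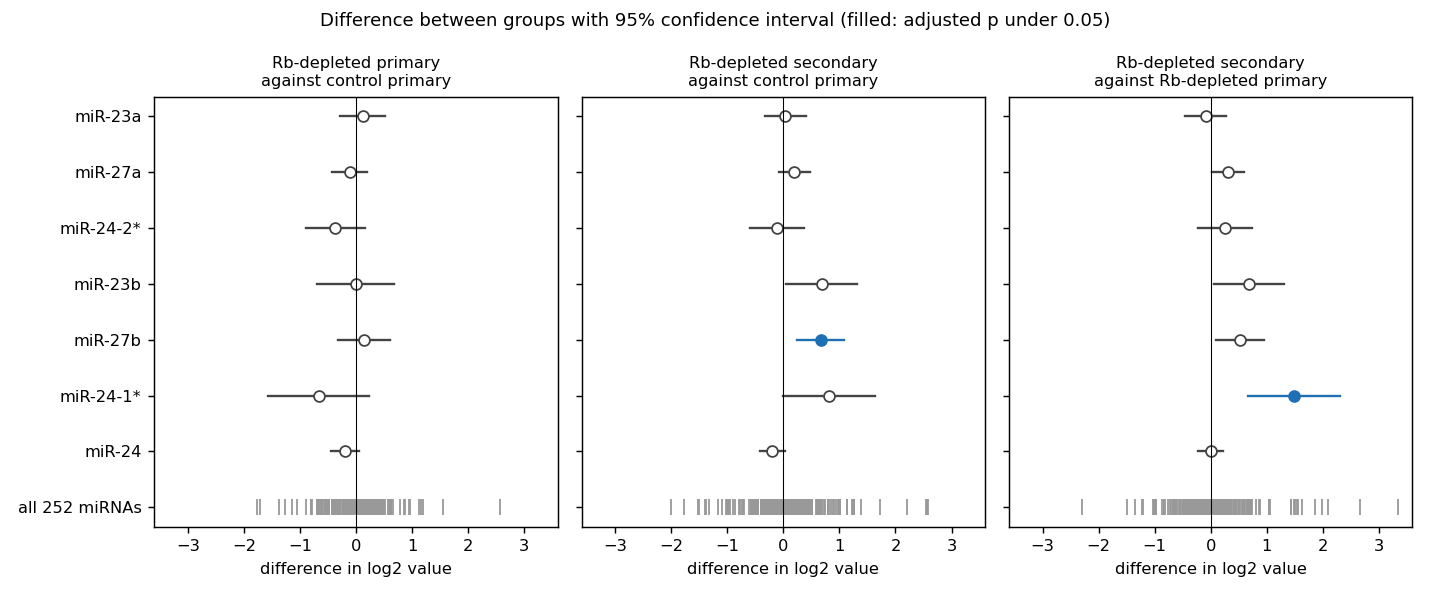
Difference in log2 value between 2 groups (horizontal axis) for each member, with lines for the 95% confidence interval of the limma fit, filled points for an adjusted p under 0.05 and, at the bottom, 1 tick for each of the 252 miRNAs. MiR-27b against control (0.66) and miR-24-1* against Rb-depleted primary cells (1.48) are filled, and the ticks of all 252 miRNAs include the members.

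Paralogues were then compared within each array, since any factor that scales a whole array cancels in such a difference. Quantile normalization acts on each rank separately and does not cancel. On secondary replicate 3, miR-23b minus miR-23a was -2.12 with it and -2.31 without. Relative to its chromosome 8 partner, the chromosome 13 form of miR-23 read higher on the Rb-depleted secondary arrays than on the primary arrays. The normalized value of miR-23b corresponded to 12.5% and 12.8% of that of miR-23a in control primary, 12.2% and 10.99% in Rb-depleted primary, and 19.8%, 17.1% and 22.9% in Rb-depleted secondary cells. All secondary arrays were above all primary arrays, and the 2 primary groups differed little. On the log2 scale miR-23b minus miR-23a averaged -2.98 (SD 0.02, n = 2), -3.11 (SD 0.11, n = 2) and -2.33 (SD 0.21, n = 3). The exact permutation test over the 210 splits of the 7 arrays into the 3 groups gave p = 0.00952, the smallest it can give, and 0.0286 after adjustment over 3 pairs. Without normalization the exact p was 0.0381 and the adjusted value 0.0714, so the call after adjustment was lost there.

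The change in miR-23b minus miR-23a was 0.65 against control and 0.78 against Rb-depleted primary cells. It was 0.65 and 0.66 without normalization, and with the first slide alone it was 0.65 and 0.78, which leaves secondary replicate 1 as the only secondary array and gave a change of the same size. Between the primary groups the difference changed by -0.13. Taken group by group, 2 arrays against 3 cannot give an exact permutation p below 0.1, and 2 against 2 none below 0.333. Both comparisons with secondary cells reached 0.1 (adjusted p = 0.225 over 9 tests).

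For miR-27 the difference between the paralogues had the same direction and was smaller, and the test was not passed. MiR-27b corresponded to 13.7% and 11.9% of miR-27a in control primary, 16.1% and 14.4% in Rb-depleted primary, and 19.7%, 14.7% and 18.9% in Rb-depleted secondary cells. Secondary replicate 2 fell among the Rb-depleted primary arrays, so the groups overlap. MiR-27b minus miR-27a averaged -2.97, -2.71 and -2.50 in the 3 groups, a change of 0.47 against control and 0.21 against Rb-depleted primary cells (exact permutation p = 0.133 over the 3 groups).

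For the miR-24 5′ arms, a pair added after the data were seen, miR-24-1* corresponded to 7.80% and 9.15% of miR-24-2* in control primary, 10.9% and 4.33% in Rb-depleted primary, and 17.3%, 16.3% and 14.8% in Rb-depleted secondary cells. All secondary arrays were above all primary arrays. The log2 difference changed by 0.93 against control and by 1.23 against Rb-depleted primary cells (exact permutation p = 0.105 over the 3 groups, and 0.0476 without normalization, with an adjusted value of 0.0714). Against Rb-depleted primary cells the change was 0.55 without normalization.

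**Figure D4:**
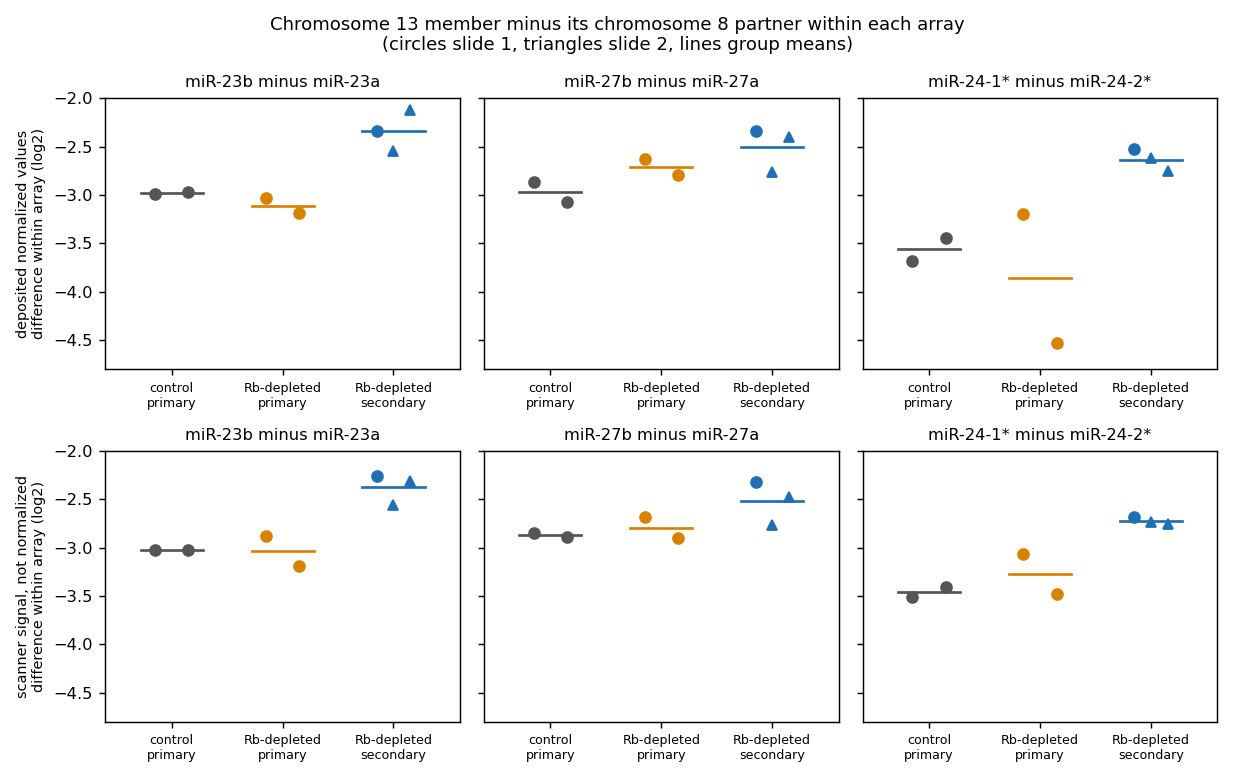
Difference in log2 value between the chromosome 13 member and its chromosome 8 partner within each array (vertical axis), by group, from the deposited values (upper row) and from the scanner signal without normalization (lower row), with circles for slide 1, triangles for slide 2 and lines for group means. MiR-23b minus miR-23a lies between -2.54 and -2.12 on the 3 secondary arrays and between -3.19 and -2.97 on the 4 primary arrays in the upper row.

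Each member had 2 probes with 10 spots each, and 0 spots were saturated. The total gene signal was the sum of both probes on 7 of 7 arrays for all members but miR-24-1*, whose value was that of 1 probe alone on 7 of 7 arrays. The probes of each other member had differences of the same sign. Without normalization, secondary against control cells differed by 0.24 and 0.20 for the miR-23b probes and by 0.17 and 0.08 for those of miR-27b, while miR-23a (-0.49 and -0.40), miR-27a (-0.24 and -0.17), miR-24 (-0.52 and -0.44) and miR-24-2* (-0.66 and -0.59) were lower with both. Over the 4 pairings of a miR-23b with a miR-23a probe, the change of the difference against control was 0.60 to 0.72, with an exact permutation p of 0.0381 to 0.0571. Over those of miR-27b and miR-27a it was 0.24 to 0.41 (exact permutation p 0.133 to 0.352). The probe that carried miR-24-1* (8.09 to 17.6) gave changes of 0.78 and 0.72 against the probes of miR-24-2*. Its other probe read 0.116 to 4.70, near or below the lowest signal called detected on an array (3.38 to 5.37). For that reason its differences are not given here. How far a probe for one paralogue also binds the other was not tested, for miR-23, for miR-27 or for the miR-24 5′ arms. MiR-27a and miR-27b differ by 1 base, and the sequence of miR-23b was not at hand.

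**Figure D5:**
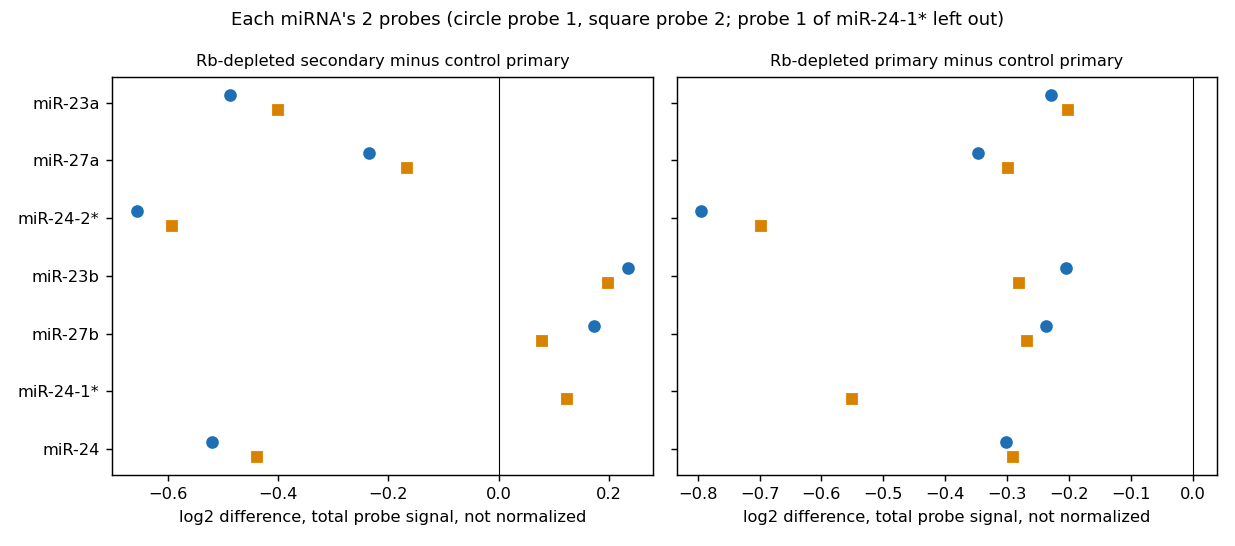
Log2 difference in total probe signal between 2 groups without normalization (horizontal axis) for the 2 probes of each member (circles and squares), without the miR-24-1* probe whose signal was near or below the detected range. In secondary against control cells both probes of miR-23b and of miR-27b lie to the right of 0 and both probes of miR-23a, miR-27a, miR-24 and miR-24-2* to the left.

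Other miRNAs known to be repressed by Myc, as these clusters are, were counted from a list of 28, of which 26 are in the table. None passed in Rb-depleted primary against control cells (limma, adjusted p under 0.05). In secondary against control cells 3 of 26 were called higher, a share below the 13.1% of all miRNAs, and 0 lower, with miR-15a, a repressor of cell cycle genes (0.75, adjusted p = 0.0461), and miR-29b, a repressor of collagen and other matrix genes (0.52, adjusted p = 0.0106), among them, and the list's median was 0.16 against 0.03 over all miRNAs. In secondary against Rb-depleted primary cells 2 of 26 were called higher, again below the 12.7% of all miRNAs, and 0 lower, miR-34a, a target of p53 (1.51, adjusted p = 0.0307), and miR-29b (0.30, adjusted p = 0.0411). The list's median there was 0.06 against 0.02.

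MiR-128, which holds the bases of the miR-27 seed shifted by 1 position, overlapped in all groups. It read 4.78 and 4.95 in control primary, 5.04 and 4.74 in Rb-depleted primary, and 4.40, 5.06 and 5.29 in Rb-depleted secondary cells. Secondary replicate 1 was the lowest and replicate 3 the highest array, and the difference from control was 0.05 (95% interval -0.64 to 0.74).

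Over the 7 arrays, miR-23b and miR-27b varied together with Pearson r = 0.96, while miR-23a and miR-27a had r = 0.19. This was not a split by cluster. MiR-27a, from chromosome 8, had r = 0.83 with miR-23b, 0.75 with miR-27b and 0.78 with miR-24-1*, and 0.54 with miR-24-2*. MiR-24 had r = 0.75 with miR-24-2* and -0.12 with miR-24-1*. Outside the clusters, the mean centred profile of the 7 members was most like those of miR-143 (r = 0.98), miR-101b (0.95) and miR-148a (0.95), and that of the 3 chromosome 13 members most like miR-143 (0.97), miR-152 (0.97) and miR-196a (0.95). For the chromosome 8 members the nearest were miR-219 (0.84), miR-10a (0.73) and miR-99a (0.71). The centred values were averaged without scaling. MiR-24-1*, the member with the lowest signal, varied most over the arrays (SD 0.75, against 0.12 to 0.45 for the others). It therefore weighed most in both profiles that hold it. These correlations describe 7 arrays in 3 groups that share the normalization, and they carry no test.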

How the data were processed

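The authors deposited log2 values of 252 mouse miRNAs and 11 control rows, quantile normalized in GeneSpring GX, and scanner files (Agilent Feature Extraction, 10.7.3.1 per the labels, 11.0.1.1 in the headers) with the intensity of every spot, probe and miRNA. Quantile normalization of these intensities returned the deposited log2 values, which tied each of the 252 rows to 1 scanner entry. Control rows were left out.

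All 252 miRNAs of the 7 arrays entered 1 limma 3.58.1 fit (R 4.3.3, empirical Bayes moderation) with a mean for each group, checked on simulated data. Pairs of groups were called at a Benjamini-Hochberg adjusted p under 0.05 and the F-test at 0.1. Differences between paralogues within an array (chromosome 13 minus chromosome 8 form) were tested by exact permutation of arrays, with a one-sided F ratio over 3 groups and two-sided between 2. Hairpins were matched to NCBIM37 and its GENCODE annotation (Python 3.11.15). The miRNAs named are all entries of the 6 hairpins, miR-128, the 3 most alike by Pearson r, and at most 2 of the Myc list per comparison. Members and lists were chosen with earlier results of these data known. The labels speak of independent experiments but not of separate cultures, so p-values measure the spread between these arrays, whose number limits the precision. Alternatives in normalization, filter, test, threshold, covariates and arrays were run. RNA-seq and RT-qPCR were not analysed here.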

Additional observations from a re-analysis of the deposited data

Results flagged for a closer look

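After Rb depletion, miR-24-1* was 1.48 higher on the log2 scale in secondary than in primary cells (adjusted p = 0.0357, limma), which is also the gap between their differences from control, 0.81 and -0.67. The call held in 3 of 10 alternatives and in 2 of the 7 fits that left out an array. Without normalization the values were 0.67, 0.12 and -0.55. Its signal was 8.09 to 17.6, the lowest of the 7 members, came from 1 probe, and was lowest on Rb-depleted primary replicate 2.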

How the results depend on the processing

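The number of members called in Rb-depleted primary against control cells stayed at 0 under all alternatives. In the F-test (2 members) it was 3 with quantile normalization of the table's miRNAs alone, with all mouse miRNAs and a floor of 1, and with trend and robust moderation, 1 with scaling to the 75th percentile and 0 with classical tests, the replicate block, slide as a term or a threshold of 0.05. In secondary against control cells (1 member) it was 2 without normalization (miR-24-2* at -0.61 and miR-24 at -0.48, both lower, and not miR-27b), 2 with quantile normalization of the table's miRNAs alone (miR-27a and miR-27b), 2 on the first slide only (miR-23b and miR-27b), and 0 with scaling to the 75th percentile, with all mouse miRNAs and a floor of 1, and with classical tests, the replicate block or slide as a term. With only the 2 groups compared it stayed at 1, but the member called was miR-24-1* (adjusted p = 0.0492, limma) and not miR-27b. In secondary against Rb-depleted primary cells (1 member) it was 0 without normalization, with scaling, classical tests, the replicate block, slide as a term or only the 2 groups compared, 2 on the first slide only (miR-23b and miR-27b, not miR-24-1*) and 3 at a threshold of 0.1. The first slide alone was tried after seeing the data, and its lone secondary array is assumed to vary like the other groups. With 1 array left out, these counts ranged from 0 to 3 (F-test), 0 to 2 and 0 to 3. Dunnett's adjustment called the same member, miR-27b, against control. The causes were not tested.

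The exact permutation p of miR-23b minus miR-23a was 0.0667 with quantile normalization of the table's miRNAs alone and with all mouse miRNAs, and 0.05 to 0.0667 with 1 array left out, where 0.0167 or 0.0667 is the smallest p that can be reached. Its change against control was 0.54 to 0.75 with 1 array left out and 0.54 with the replicate block.

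Some values changed sign. Without normalization miR-23a was -0.21 (primary against control) and -0.42 (secondary against control), miR-27a -0.19 (secondary against control), miR-27b -0.24 (primary against control) and miR-24 -0.18 (secondary against Rb-depleted primary), beside shifts of all miRNAs of -0.26, -0.46 and -0.18. With scaling to the 75th percentile miR-23a was 0.0027 (secondary against Rb-depleted primary), miR-23b 0.014 and miR-27b -0.0089 (primary against control). With quantile normalization of the table's miRNAs alone or all mouse miRNAs miR-23b was 0.022 (primary against control). MiR-24-1* minus miR-24-2* (primary against control) was 0.18 without normalization or with scaling, 0.017 with quantile normalization of the table's miRNAs alone, and -0.97 to 0.37 with 1 array left out. With 1 array left out, the ranges that crossed 0 were -0.073 to 0.153 for miR-23a and -0.266 to 0.026 for miR-24-2* (secondary against control), -0.195 to 0.031 for miR-23a and -0.056 to 0.058 for miR-24 (secondary against Rb-depleted primary), and -0.252 to 0.028 for miR-27a and -0.082 to 0.069 for miR-23b (primary against control).

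The replicate number as a block gave -0.073 for miR-23a (secondary against control) and -0.028 for miR-24 (secondary against Rb-depleted primary). Same-numbered arrays did not deviate together (correlations from -0.14 to 0.13), so the numbers were not taken to pair arrays. Apart from single arrays left out, 177 differences of single members kept their direction and side of the threshold, 12 changed sign, 14 lost and 7 gained a call.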
